A study of Gallus gallus with 18 samples.

Results

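Leg muscle of chickens held at 40 °C for 3 h was compared with leg muscle of control chickens at 28 °C on Affymetrix chicken genome arrays. The comparison uses the 3 arrays labelled as muscle at T3 (heat) and the 3 labelled as muscle at T0 (control), 6 of the 18 arrays of a series that also holds liver and brain. Of the 38535 probe sets of the deposited table, the 38439 that are not array controls were taken, and 19220 passed a filter on low intensity and were tested. Per the labels, temperatures were 40 ± 1 °C for heat and 28 ± 1 °C for controls, both groups had first been kept at 28 °C for 8 days with food and water, and the study had 24 birds, 12 male and 12 female. The labels call the arrays of a group biological replicates. They do not say which birds or which sex went to an array, or whether RNA of several birds was pooled. The p-values thus measure the spread between these arrays, and how much of it lies between birds is not known. Since the control arrays are T0 and the heat arrays T3, time of sampling and temperature cannot be told apart.

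Skeletal muscle makes part of the body's heat, stores glycogen and burns fatty acids, and is the body's main protein reserve. In most animal cells a rise in temperature activates heat shock factors, which switch on chaperones that hold or refold damaged proteins (HSP70, HSP90, HSP40 and small heat shock proteins and their helpers). Stress also releases corticosterone in birds, a glucocorticoid known to turn muscle from glucose towards fatty acids as fuel and towards protein breakdown.

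The tissue label fitted the arrays. Of 17 skeletal muscle markers 15 were measured, and all 15 read above every one of the 6 trp probe sets (bacterial sequences that show the background) on each of the 6 arrays. Their median level was 101% to 108% of the control mean on the heat arrays and 94.0% to 108% on the control arrays. Slow or cardiac type muscle markers were less even. Over 11 of them, the median log2 level against the control mean was -0.15, 0.03 and -0.52 on heat arrays 1, 2 and 3. On control arrays 1, 2 and 3 it was 0.25, -0.11 and -0.15. FABP4, a fat cell marker, read 809, 1913 and 338 on the heat arrays and 398, 6518 and 226 on the controls. The part of fibre type and fat in the results was not tested. Array medians lay between 83.2 and 87.7 on the heat arrays and between 82.4 and 85.9 on the control arrays, and the trp probe sets read 9.93 to 60.6. For EEF1A, the probe set at the 3' end over that at the 5' end, which rises as RNA degrades, gave 1.89, 1.58 and 1.63 on heat arrays 1, 2 and 3 and 1.53, 1.82 and 2.30 on control arrays 1, 2 and 3. HINTW, a gene of the female-specific W chromosome, was chosen after its values were seen. It read 2712, 3816 and 5446 on the heat arrays and 2726, 2775 and 4549 on the controls, and the ranges overlapped. The labels name no array from males only, so whether every array held female RNA was not tested.

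Transcripts of other tissues were on some arrays. Over 17 hepatocyte markers, the median level was 8.62%, 7.41% and 34.0% of the liver control level on heat arrays 1, 2 and 3, against 10.5%, 3.59% and 1.59% on control arrays 1, 2 and 3. Albumin (ALB) read 5408, 6020 and 17383 on the heat arrays, against 5422, 2088 and 753 on the controls. Heat array 3 was thus the highest in liver transcripts and control array 3 the lowest, while heat arrays 1 and 2 lay within the control range. Over 13 neuron markers, the median was 2.23%, 1.4% and 4.62% of the brain control level on the heat arrays, against 1.05%, 0.976% and 1.04% on the controls, where 8, 9 and 9 of the 13 were at or below the highest trp probe set. Glia markers did not follow that order. Over the 7 tested, the median log2 level against the control mean was 0.12, -0.04 and -0.04 on the heat arrays and -0.12, -0.08 and 0.17 on the controls. Of these, 1 (MBP) lay above all controls and 1 (GJC3) below. Heat array 2 was the highest for most skin markers and for some smooth muscle markers. KRT5, a keratin of the basal epidermis, read 2787 there on its brightest probe set, against 17.9 and 22.1 on the other heat arrays and 18.9 to 25.3 on the controls. DSP, a desmosome protein, KRT14 and TP63 were also highest there, while PKP1 read 315 on heat array 2 and 321 on heat array 3. MYH11, smooth muscle myosin, read 2360 on heat array 2, against 362 and 440 on the other heat arrays and 338 to 399 on the controls, and TAGLN and ACTG2 were highest there too. RGS5 and PDGFRB, markers of pericytes, were instead lowest on heat array 2, at 1101 and 1079. The part of these transcripts in the results was not tested.

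**Figure D1:**
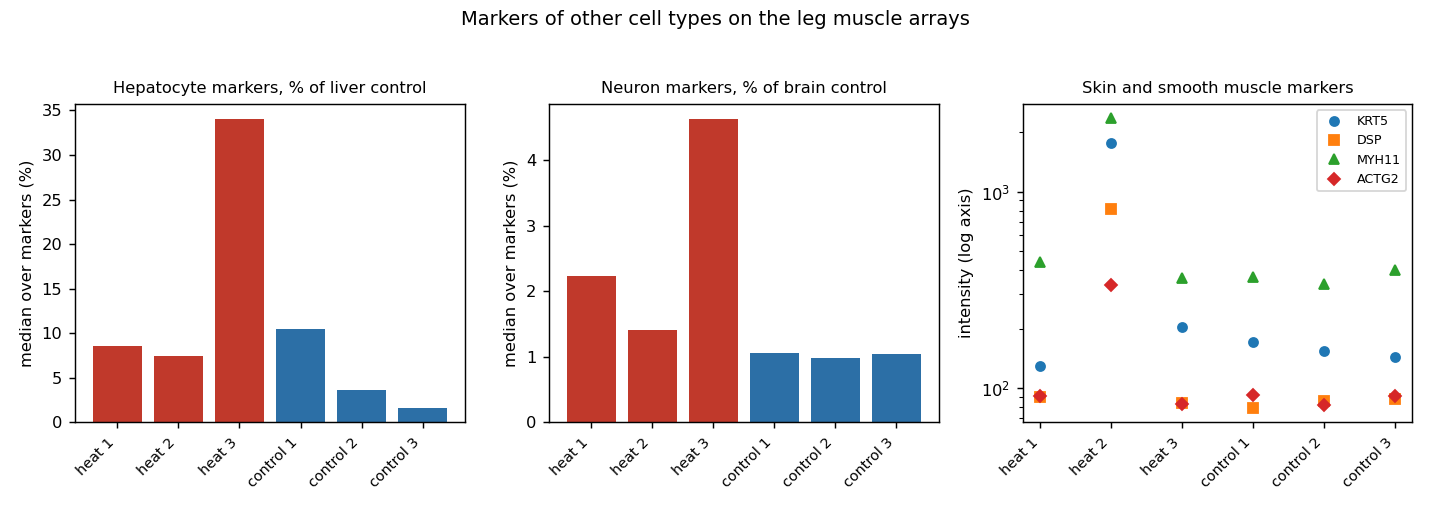
Levels of markers of other cell types on the 6 leg muscle arrays, heat arrays (red bars) left of control arrays (blue bars). The left panels give the median over 17 hepatocyte and 13 neuron markers as a percent of their level in liver or brain controls, and the right panel gives intensities of 2 skin and 2 smooth muscle genes on a log axis. KRT5 is drawn from its tested probe set with the higher control level, not its brightest one. Heat array 3 stands out at 34.0% for hepatocyte markers, and heat array 2 for KRT5 and MYH11.

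Probe sets at least 4-fold higher in liver or brain controls than in muscle controls were marked as possible carried-over RNA. This applied to 3402 probe sets, of which 1677 were tested, 8.73% of all tested. Of these, 754 were marked for liver, 810 for brain and 113 for both. Their median log2 difference, heat minus control, was 0.21, against 0.0039 for the probe sets not marked. All 3 heat arrays lay above all 3 control arrays for 313 of the marked probe sets (18.7%) and below them for 77 (4.59%). Among all tested probe sets the shares were 10.2% above and 11.7% below. The mark itself uses the muscle controls, and a probe set with low control values is both more often marked and more often higher in heat, so these shares are a description and not a test. Of the 6 marked genes with the largest positive differences, 3 liver genes were far higher on heat array 3 than on heat arrays 1 and 2: MBL2 (mannose-binding lectin) read 541, 405 and 3221 on heat arrays 1, 2 and 3, against 215, 101 and 51.5 on the controls. RBP4A, a plasma retinol carrier, and LOC423629 followed the same order. ESRP2, an epithelial splicing factor, was highest on heat array 2 (25.2, 648 and 184 on the heat arrays, against 15.4, 8.25 and 5.54 on the controls). GPM6A, a neuronal membrane glycoprotein, read 157, 59.0 and 409 on the heat arrays, against 10.8, 17.3 and 11.6 on the controls. None of these passed the test (limma, adjusted p 0.117 to 0.218). ESRP2 and GPM6A passed the filter only through the heat arrays, where they are high. The remaining gene of the 6 is HSPH1, described with the chaperones.

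Of 19220 probe sets, 2 (0.0104%) passed an adjusted p of 0.05 (limma, moderated test with an intensity trend, Benjamini-Hochberg over all tested), and both rose. At an unadjusted p under 0.05 there were 3081, of which 1452 were higher and 1629 lower. At an adjusted p under 0.1, a limit chosen after the data were seen, there were 163, with 74 higher and 89 lower. With an unadjusted p under 0.05 and a change of at least 2-fold there were 172 higher (0.895%) and 84 lower (0.437%), and 107 of the 172 but 4 of the 84 were marked. A fit that takes the spread from all 18 arrays of the series called 756 higher (3.93%) and 946 lower (4.92%), of which 178 were marked. The median within-group SD on the log2 scale was 0.20 in muscle, 0.17 in liver and 0.14 in brain, so that fit gives muscle a smaller spread than its own arrays show. The differences below are log2 values of intensity + 16, heat minus control, and "adjusted p" without further words is that of the 6 muscle arrays.

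**Figure D2:**
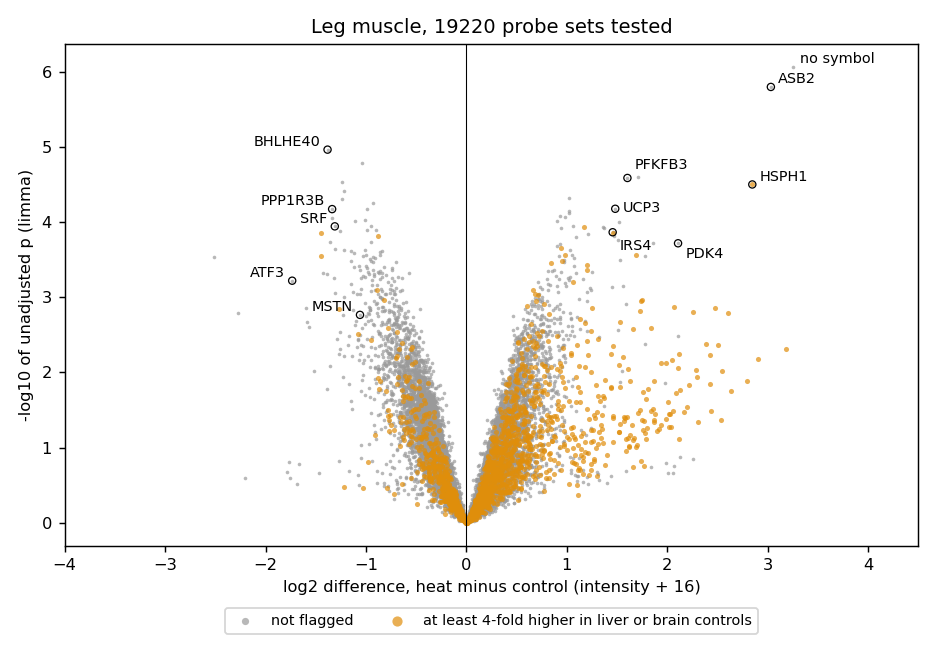
Difference between heat and control (x axis, log2 of intensity + 16) against −log10 of the unadjusted limma p (y axis) for the 19220 probe sets tested in leg muscle. Probe sets at least 4-fold higher in liver or brain controls are orange. ASB2 and a probe set without a gene symbol are the highest points, and most orange points far from 0 lie on the right.

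ASB2 was the only named gene that rose past the threshold. ASB2 is the substrate-binding subunit of a cullin ubiquitin ligase that marks filamins and other cytoskeletal proteins for breakdown, and in mice its overexpression shrinks muscle. It read 2250, 2443 and 1647 on the heat arrays, against 184, 253 and 300 on the controls. The groups lay far apart. The rise was 8.17-fold (log2 3.03, SE 0.23, adjusted p = 0.0154), with means of 2113 ± 416 in heat and 246 ± 58.7 in controls (SD, n = 3 arrays each). The size of the difference held without each array in turn (log2 2.85 to 3.20). The call did not hold without heat array 2 (adjusted p = 0.115), control array 2 (0.106) or control array 3 (0.0840). Control levels of the same probe set were 129 in liver and 148 in brain, below muscle, so ASB2 is not among the marked probe sets.

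The other probe set that rose carries no gene symbol in the table used. It read 364, 293 and 188 on the heat arrays, against 14.4, 16.1 and 12.3 on the controls, which is within the range of the trp background probe sets. It passed the filter on mean intensity only through the heat arrays, where it is high, and a probe set chosen in that way had to differ. The fitted difference of 3.25 (SE 0.22, adjusted p = 0.0154) depends on the added 16 and is no measured fold, and the probe set did not enter the test where the filter used mean log2 intensity. Its call was lost without heat array 2 (adjusted p = 0.115) and without control array 1, 2 or 3 (0.0599, 0.0975 and 0.0840).

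**Figure D3:**
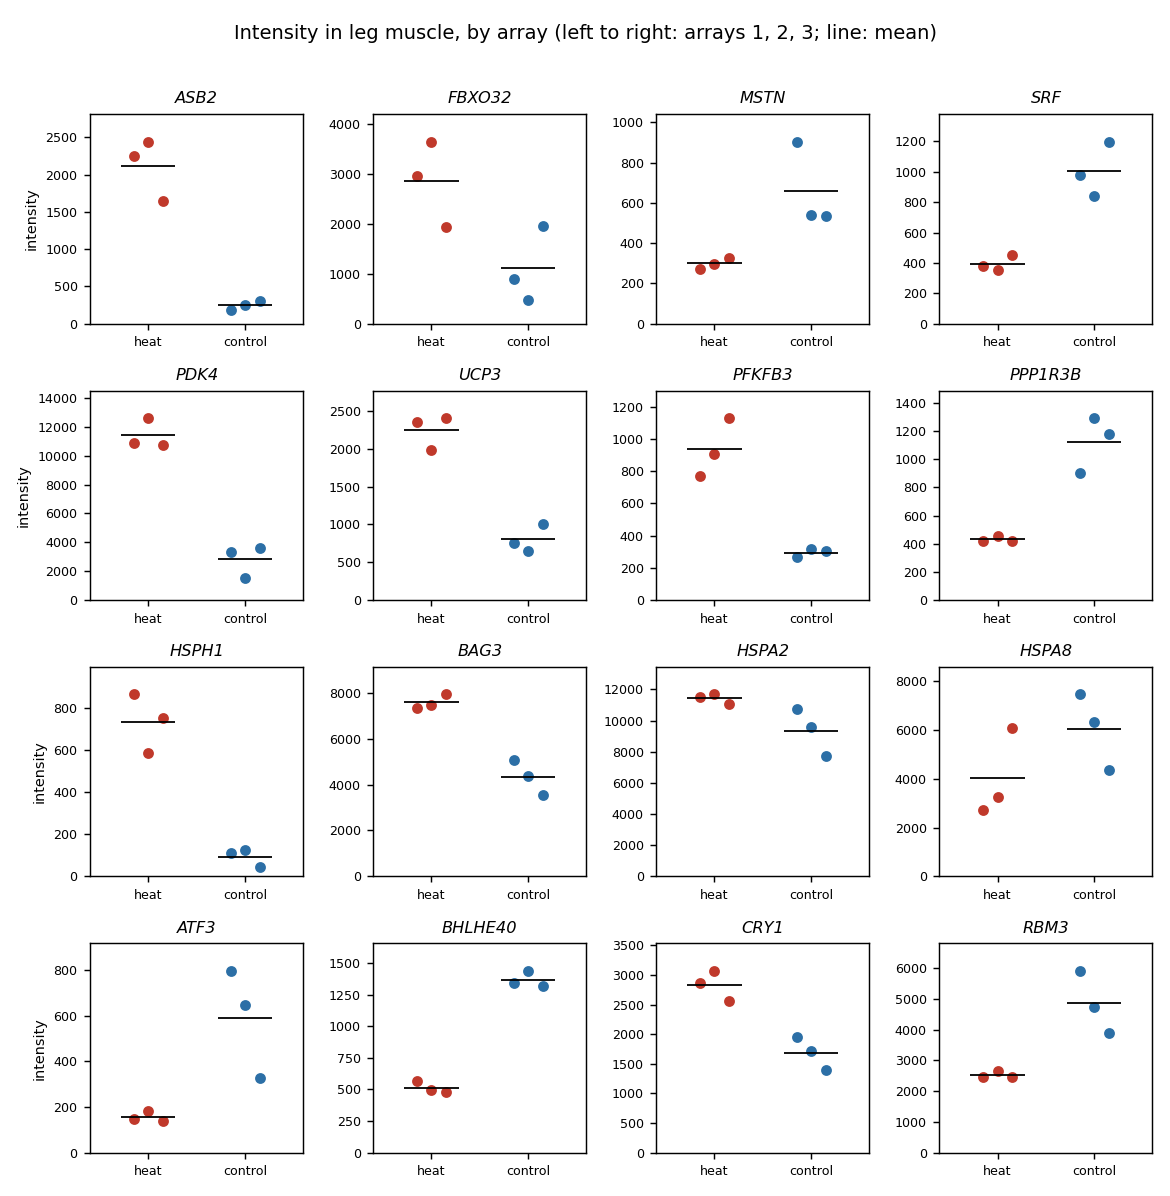
Intensities of 16 genes on the 6 leg muscle arrays, with heat (red) left of control (blue), arrays 1 to 3 from left to right within a group, and a line at the mean. Each axis starts at 0. ASB2, PDK4, UCP3, PFKFB3, HSPH1, BAG3, HSPA2 and CRY1 are higher on all 3 heat arrays, MSTN, SRF, PPP1R3B, ATF3, BHLHE40 and RBM3 lower, and FBXO32 and HSPA8 overlap.

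Of 26 tested muscle ubiquitin ligases and their receptors, 1 (ASB2) rose. The heat arrays lay above all controls for 7 and below them for 6, with a list median of 0.14. Over all tested genes, taking 1 probe set each, 10.6% lay above and 12.8% below, and the median was 0.0061. Counts of all lists are to be read beside these shares. Those from the fit on 18 arrays are to be read beside its 3.93% higher and 4.92% lower. FBXO32 (atrogin-1), a ligase that marks wasting muscle, read 2953, 3643 and 1943 on the heat arrays, against 895, 482 and 1954 on the controls. Heat array 3 was level with control array 3, and the difference of 1.52 (SE 0.47) did not pass (adjusted p = 0.199, or 0.0110 in the fit on 18 arrays). Within the ASB family, ASB4 was higher on all 3 heat arrays (492, 670 and 409, against 279, 195 and 315, adjusted p = 0.148) and ASB12 lower on all 3 (606, 444 and 787, against 991, 1132 and 1095, adjusted p = 0.154). Neither passed the test. KLHL40, a kelch protein that stabilises thin filament proteins, read 200, 191 and 203 on the heat arrays, against 715, 486 and 290 on the controls (log2 -1.18, SE 0.29, adjusted p = 0.145).

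Of 32 proteasome subunits and activators, 0 were called, 2 lay above the controls and 9 below, with a median of -0.08. PSMA5, a core subunit, read 3937, 3387 and 3531 on the heat arrays, against 4505, 4938 and 4855 on the controls. PSME4, an activator that binds the proteasome's end, read 1349, 1443 and 1002 on the heat arrays, against 788, 835 and 767 on the controls. Both had an adjusted p of 0.159. Other members went either way, with the subunit PSMD5 above all controls (0.38) and the activator PSME3 below them (-0.37), neither past the test. Of 18 ubiquitin genes and conjugating enzymes, 2 lay above and 7 below, and 0 were called. The 4 with the smallest p, UBE2G1, VCP, UBE2R2 (lower) and UBE2J1 (higher), differed by -0.39 to 0.38. Of 30 autophagy and lysosome genes, 4 lay above and 4 below.

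MSTN encodes myostatin, a secreted factor that limits muscle mass. It read 272, 296 and 328 on the heat arrays, against 905, 540 and 533 on the controls, less by a log2 of -1.06 (SE 0.22, adjusted p = 0.12). SRF, serum response factor, drives actin and other contractile genes. On its brighter probe set it read 377, 352 and 452 on the heat arrays, against 977, 840 and 1199 on the controls (log2 -1.31, SE 0.18, adjusted p = 0.0735). Its dimmer tested probe set overlapped between the groups (-0.03). On the probe sets with values given, all heat values of both genes lay below all control values. IL15, a cytokine made by muscle, read 2798, 2671 and 2643 on the heat arrays, against 1621, 1944 and 1832 on the controls. EYA1, a cofactor of homeobox transcription factors in fast muscle, read 122, 151 and 152 on the heat arrays, against 93.6, 59.3 and 52.3 on the controls. Its control mean of 68.4 lay below the lowest mean tested (87.0), so EYA1 passed the filter only through the heat arrays, where it is high. Over the 38 tested myogenic and growth regulators, 4 lay above, 9 below and the median was -0.10, with 0 called.

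Insulin and mTOR signalling genes were spread to both sides, with 9 of 30 above the controls, 6 below and a median of 0.15. Among all genes 10.6% lay above and 12.8% below. IRS4, an insulin receptor substrate, read 971, 1396 and 860 on the heat arrays, against 377, 415 and 333 on the controls (log2 1.46, SE 0.20, adjusted p = 0.0735). SESN1, a sestrin that restrains mTOR complex 1, read 4429, 6606 and 3828 on the heat arrays, against 2753, 2176 and 1596 on the controls (log2 1.18, SE 0.26, adjusted p = 0.127). EIF4EBP2, a repressor of translation initiation, read 2158, 2049 and 2131 on the heat arrays, against 2655, 2959 and 3229 on the controls. SOCS3, a feedback inhibitor of cytokine and insulin signalling, read 374, 301 and 442 on the heat arrays, against 858, 1117 and 511 on the controls. In the fit on 18 arrays 6 of the 30 passed as higher and 4 as lower.

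Of 14 tested genes of pyruvate entry 2 lay above the controls and 1 below, and of 9 mitochondrial uncoupling and nucleotide carrier genes 1 lay above and 1 below, with 0 called in either list. PDK4 phosphorylates and shuts off pyruvate dehydrogenase, which keeps glucose carbon out of the citric acid cycle. It read 10891, 12606 and 10736 on the heat arrays, against 3349, 1496 and 3626 on the controls, 4.31-fold higher (log2 2.11, SE 0.31, adjusted p = 0.0793). UCP3 is the mitochondrial uncoupling protein that birds express in skeletal muscle. It read 2359, 1990 and 2408 on the heat arrays, against 757, 652 and 1012 on the controls, 2.79-fold higher (log2 1.48, SE 0.19, adjusted p = 0.0735). PFKFB3 makes the activator of the glycolytic enzyme phosphofructokinase. It read 771, 908 and 1131 on the heat arrays, against 264, 317 and 303 on the controls, 3.04-fold higher (SE of the log2 difference 0.18, adjusted p = 0.0735). Its other tested probe sets, which are dimmer, differed by 0.37 and -0.08. For all 3 genes the lowest heat array was above the highest control by more than the spread within either group, and all 3 passed in the fit on 18 arrays (adjusted p = 0.0321 for PDK4, 3.31e-05 for UCP3 and 0.000358 for PFKFB3).

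Of 28 tested genes of fatty acid oxidation and uptake, 5 lay above the controls and 2 below, with a median of 0.13. SLC27A1, a fatty acid transporter, read 479, 430 and 466 on the heat arrays, against 275, 285 and 263 on the controls (adjusted p = 0.0926). ACSL1, which activates long-chain fatty acids, read 775, 816 and 710 on the heat arrays, against 311, 332 and 149 on the controls (log2 1.56, SE 0.28, adjusted p = 0.0966). ECI2, an isomerase for unsaturated fatty acids, read 2665, 2762 and 2769 on the heat arrays, against 1997, 1556 and 1470 on the controls. ACSL5 had the largest difference of the list (1.66) and is marked for liver.

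SLC2A1, the glucose transporter GLUT1, read 280, 389 and 273 on the heat arrays, against 755, 555 and 563 on the controls (log2 -0.96, SE 0.20, adjusted p = 0.115). ALDOC, an aldolase, and HK2, a hexokinase, were also lower on all 3 heat arrays (log2 -0.46 and -0.40). PPP1R3B and PPP1R3C recruit protein phosphatase 1 to glycogen and favour its synthesis. PPP1R3B read 418, 456 and 418 on the heat arrays, against 899, 1293 and 1182 on the controls (log2 -1.34, SE 0.17, adjusted p = 0.0735). PPP1R3C read 207, 237 and 454 on the heat arrays, against 1224, 689 and 502 on the controls (adjusted p = 0.172). Heat array 3 came close to control array 3 for PPP1R3C but not for PPP1R3B. Of 20 glycolysis genes 2 lay above and 6 below, and of 14 glycogen genes 2 lay above and 3 below.

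Of 61 tested subunits and assembly factors of oxidative phosphorylation, 0 lay above the controls and 6 below, with a median of -0.07. The shares over all genes were 10.6% above and 12.8% below. NDUFB8, a subunit of complex I, read 4365, 3768 and 4047 on the heat arrays, against 5125, 4775 and 5546 on the controls (log2 -0.34, SE 0.11, adjusted p = 0.201). Of 15 creatine, purine nucleotide and AMPK genes, 0 lay above and 4 below, with a median of -0.18. AMPD1, which deaminates AMP in working muscle, read 1707, 1672 and 2382 on the heat arrays, against 3024, 2773 and 3548 on the controls (log2 -0.70, adjusted p = 0.145). PPARGC1A, a coactivator that promotes mitochondrial genes, read 1612, 1649 and 1318 on the heat arrays, against 1537, 1011 and 1372 on the controls, and the groups overlapped.

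**Figure D4:**
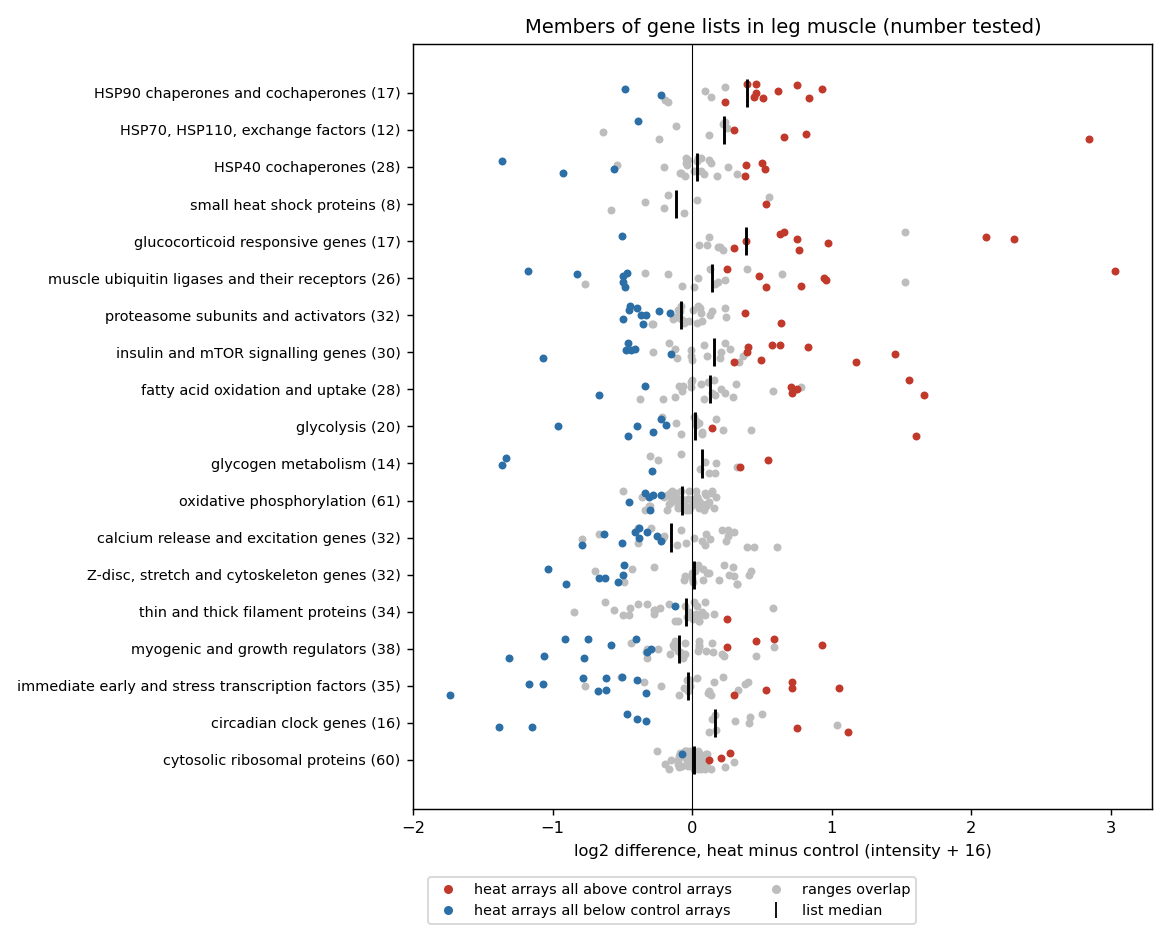
Log2 difference, heat minus control, of each tested member of 19 gene lists (1 probe set a gene). Red points have all 3 heat arrays above all controls, blue points all 3 below, and grey points overlap. A black bar marks the list median, which lies at 0.39 for HSP90 and its cochaperones and for the glucocorticoid responsive genes and within 0.23 of 0 for the other lists shown.

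HSPH1, an HSP110 exchange factor for HSP70, had the largest difference of its list. It read 864, 587 and 754 on the heat arrays, against 109, 127 and 45.3 on the controls, 7.19-fold higher (log2 2.85, SE 0.32, adjusted p = 0.0735). HSPH1 is marked for brain, where it averaged 421 in controls and read 1155, 1133 and 1068 on the heat arrays. Over the 13 neuron markers, the median was 1.4% to 4.62% of the brain control level on the muscle heat arrays and 0.976% to 1.05% on the muscle controls, and their part in the HSPH1 values was not tested. HSPA4, another HSP110-type factor, was higher on all 3 heat arrays (2432, 2511 and 3559, against 2094, 1827 and 1426, adjusted p = 0.195). BAG3, an HSP70 cochaperone that clears damaged filamin in muscle, read 7324, 7463 and 7924 on the heat arrays, against 5077, 4375 and 3555 on the controls (log2 0.82, SE 0.14, adjusted p = 0.0867). BAG4, a related cochaperone, was lower on all 3 heat arrays (log2 -0.39, adjusted p = 0.281).

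HSPA2, an HSP70 family member, read 11538, 11676 and 11051 on the heat arrays, against 10717, 9606 and 7745 on the controls (log2 0.30, SE 0.12, adjusted p = 0.288). HSPA8, the constitutive HSP70, read 2728, 3269 and 6071 on the heat arrays, against 7448, 6314 and 4363 on the controls, with overlap (log2 -0.64, SE 0.32, adjusted p = 0.370). Over the 12 tested HSP70 and HSP110 chaperones and exchange factors, 4 lay above, 1 below and the median was 0.23. The 4 above were HSPH1, BAG3, HSPA4 and HSPA2.

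Of 17 HSP90 chaperones and cochaperones, 10 lay above the controls and 2 below, with a median of 0.39, and 0 were called. The shares over all genes were 10.6% above and 12.8% below. In the fit on 18 arrays, 6 of the 17 passed as higher and 1 as lower. The 10 and 2 became 10 and 3 without heat array 3 and stayed 10 and 2 without control array 3, against 16.5% and 14.4% of all genes above the controls in those settings. FKBP5, an immunophilin that tunes the glucocorticoid receptor, read 3280, 4515 and 3659 on the heat arrays, against 2387, 2252 and 2093 on the controls (log2 0.75, SE 0.14, adjusted p = 0.106). AHSA2, related to the HSP90 ATPase activator AHSA1, read 469, 455 and 389 on the heat arrays, against 284, 210 and 181 on the controls. CHORDC1, an HSP90 partner, read 581, 552 and 499 on the heat arrays, against 339, 341 and 368 on the controls. UNC45B, which folds muscle myosin together with HSP90, read 1717, 1797 and 2506 on the heat arrays, against 1248, 1069 and 991 on the controls. HSP90AA1 itself, the inducible HSP90, read 5640, 5630 and 7256 on the heat arrays, against 4994, 5256 and 3382 on the controls (log2 0.46, SE 0.19, adjusted p = 0.299).

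HSPB9 is measured by 2 tested probe sets. On the brighter one it read 13609, 13688 and 15233 on the heat arrays, against 13263, 10095 and 7040 on the controls (log2 0.53, SE 0.21, adjusted p = 0.275). On the other, dimmer one it read 8538, 5962 and 10097 on the heat arrays, against 3621, 2740 and 2127 on the controls (log2 1.53, SE 0.24, adjusted p = 0.0832). HSPB1 read 10360, 8966 and 10166 on the heat arrays, against 9979, 9134 and 9674 on the controls, and CRYAB (alpha B-crystallin) 3468, 2891 and 2547, against 4171, 2692 and 2561. Of 8 small heat shock proteins, 1 lay above, 0 below and the median was -0.11. Of 28 HSP40 cochaperones, 4 lay above and 3 below. DNAJB5 read 390, 427 and 448 on the heat arrays, against 1371, 1192 and 833 on the controls (log2 -1.36, SE 0.20, adjusted p = 0.0793), the largest difference of its list. DNAJC16 was lower too (log2 -0.93, SE 0.15, adjusted p = 0.0832), while DNAJA4, an HSP40 known to be heat inducible, overlapped (3334, 3324 and 3139, against 3800, 3711 and 2691). HSF3, the heat shock factor best known from birds, read 968, 1063 and 844 on the heat arrays, against 674, 838 and 815 on the controls (log2 0.30, SE 0.16, adjusted p = 0.392).

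Among organelle chaperones, HSPD1, the mitochondrial HSP60, read 4042, 4099 and 4810 on the heat arrays, against 3123, 3152 and 2321 on the controls (log2 0.60, SE 0.15, adjusted p = 0.150). HSP90B1, the HSP90 of the endoplasmic reticulum, read 3143, 3465 and 3834 on the heat arrays, against 2687, 2658 and 1514 on the controls (adjusted p = 0.242). Of 24 endoplasmic reticulum chaperones 5 lay above and 1 below, with a median of 0.07, and of 12 mitochondrial ones 4 lay above and 2 below.

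Of 17 glucocorticoid responsive genes, 9 lay above the controls, 1 below, and the median was 0.39. Among all genes 10.6% lay above and 12.8% below. None of the 17 was called on the 6 arrays (limma), and 8 passed as higher and 0 as lower in the fit on 18 arrays. In that fit 3.93% of all tested probe sets passed as higher and 4.92% as lower. PDK4, FKBP5 and FBXO32 belong to the list and are described above. NFKBIA, the inhibitor of NF-kappa-B, read 1611, 2295 and 1780 on the heat arrays, against 1176, 1142 and 978 on the controls (log2 0.77, SE 0.17, adjusted p = 0.128). SLC38A2, an amino acid transporter, read 1812, 2359 and 1757 on the heat arrays, against 1317, 1278 and 1125 on the controls (adjusted p = 0.139). The 1 member below was KLF9, a transcription factor, with 597, 443 and 385 on the heat arrays, against 644, 726 and 638 on the controls (log2 -0.50, adjusted p = 0.256). TAT, a liver enzyme, is 1 of the 9 above, with 163, 177 and 2298 on the heat arrays and 158, 56.7 and 36.1 on the controls. Its control mean lay below the lowest mean tested, so TAT passed the filter only through the heat arrays, where it is high. In all, 5 of the 17 are marked for liver or brain. Without heat array 3, 13 of the 17 lay above the controls and 1 below, a setting in which more of all genes also lay above, as given for the HSP90 list.

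Among ATF4 and amino acid response genes, members went both ways. CHAC1, which breaks down glutathione, read 230, 378 and 212 on the heat arrays, against 90.3, 70.9 and 87.0 on the controls (log2 1.51, SE 0.22, adjusted p = 0.0793). The control mean of CHAC1 lay below the lowest mean tested. It passed the filter only through the heat arrays, where it is high, so its p-value is no support. ATF3, a stress-induced transcription factor, read 149, 183 and 138 on the heat arrays, against 797, 646 and 330 on the controls (log2 -1.74, SE 0.31, adjusted p = 0.0898). MTHFD2, a mitochondrial folate enzyme, was lower on all 3 heat arrays (log2 -0.56, SE 0.12, adjusted p = 0.128). Of the 15 tested, 5 lay above and 2 below.

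Of 35 immediate early and stress transcription factors, 10 lay below the controls and 5 above. Among all genes 12.8% lay below and 10.6% above. MAFF, a small MAF factor, read 295, 248 and 202 on the heat arrays, against 579, 566 and 465 on the controls (log2 -1.07, SE 0.18, adjusted p = 0.0867). DUSP10, a MAP kinase phosphatase, read 1322, 1301 and 1094 on the heat arrays, against 2224, 2295 and 1921 on the controls (log2 -0.79, SE 0.14, adjusted p = 0.0920). SIK1, a salt-inducible kinase, lay the other way, with 1849, 2535 and 1897 on the heat arrays, against 1068, 1018 and 899 on the controls (log2 1.05, SE 0.16, adjusted p = 0.0829). FOS read 14.7 to 20.1 on the heat arrays and 14.5 to 20.2 on the controls, within the range of the background probe sets, and was not tested. NFKB1, a subunit of NF-kappa-B, read 577, 667 and 527 on the heat arrays, against 325, 332 and 298 on the controls (log2 0.86, SE 0.14, adjusted p = 0.0867).

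Of 16 clock genes, 2 lay above the controls, 5 below and 9 overlapped, with 0 called, and T3 and T0 also differ in time of sampling. On its brightest probe set, BHLHE40 (DEC1), a transcriptional repressor tied to the clock and to hypoxia, had the smallest adjusted p after the called probe sets. Its 2 dimmer tested probe sets differed by -0.08 and -0.22. It read 568, 495 and 481 on the heat arrays, against 1340, 1438 and 1318 on the controls (log2 -1.38, SE 0.13, adjusted p = 0.0698). PER3, a period protein, read 104, 64 and 76.2 on the heat arrays, against 206, 155 and 238 on the controls (log2 -1.15, SE 0.21, adjusted p = 0.0954). The heat mean of PER3 lay below the lowest mean tested, so it passed the filter only through the control arrays, where it is high. ARNTL (BMAL1), the activator that BHLHE40 and PER3 oppose, read 590, 550 and 360 on the heat arrays, against 214, 256 and 187 on the controls (log2 1.12, SE 0.22, adjusted p = 0.108). CRY1, a cryptochrome, read 2862, 3069 and 2557 on the heat arrays, against 1958, 1710 and 1390 on the controls (log2 0.75, SE 0.16, adjusted p = 0.120). PER2 stayed close to background on its tested probe sets, which differed in sign among themselves. In the fit on 18 arrays, 2 of the 16 passed as higher and 2 as lower.

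RBM3, an RNA-binding protein known from mammals to be induced by cold, differed on some of its probe sets. On the brightest it read 2457, 2646 and 2471 on the heat arrays, against 5916, 4733 and 3908 on the controls (log2 -0.92, SE 0.16, adjusted p = 0.0880). Of its 3 other tested probe sets, 1 was lower on all 3 heat arrays (-0.56) and 2 overlapped (0.08 and a value near 0). CLK4 and CLK1, kinases of splicing factors, were higher on all 3 heat arrays. CLK4 read 1125, 1205 and 1117 on the heat arrays, against 891, 731 and 683 on the controls, and CLK1 read 751, 790 and 644, against 518, 442 and 500. Of the 9 genes of this list 2 lay above and 2 below.

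Of 34 thin and thick filament proteins, 1 lay above and 1 below, with a median of -0.05. Of 32 Z-disc, stretch and cytoskeleton genes, 0 lay above and 7 below, all 7 lower also in the fit on 18 arrays, although the list median was 0.01. Among all genes 10.6% lay above and 12.8% below, and 4.92% of all tested probe sets were lower in that fit. XIRP1, an actin-binding repeat protein of muscle attachment sites, read 1560, 1739 and 1871 on the heat arrays, against 4539, 3309 and 2939 on the controls (log2 -1.03, SE 0.18, adjusted p = 0.0880). FLNC, muscle filamin, read 2470, 1973 and 2065 on the heat arrays, against 3835, 2837 and 3403 on the controls (log2 -0.62, SE 0.15, adjusted p = 0.144). PDLIM7, a Z-disc adaptor, and DAG1, dystroglycan, were lower on all 3 heat arrays as well (log2 -0.67 and -0.50). A second tested probe set of PDLIM7 overlapped and did not have the same sign. ANKRD1 and BVES, also among the 7, each had another tested probe set of the opposite sign.

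Of 32 genes of calcium release and excitation, 0 lay above the controls and 9 below, with a median of -0.15. The shares over all genes were 10.6% above and 12.8% below. CACNA1S, the voltage sensor of excitation, read 1892, 1936 and 2372 on the heat arrays, against 2875, 2819 and 3084 on the controls (log2 -0.50, SE 0.13, adjusted p = 0.155), and its 3 other tested probe sets had the same sign. SRL, a calcium-binding protein of the sarcoplasmic reticulum, read 5430, 5103 and 6006 on the heat arrays, against 7840, 6794 and 6962 on the controls. STIM1, which refills calcium stores, read 1094, 694 and 699 on the heat arrays, against 1117, 1473 and 1713 on the controls, while its dimmer tested probe set was higher on all 3 heat arrays (0.23). ATP1B1, a sodium pump subunit, read 2600, 2982 and 2671 on the heat arrays, against 5216, 4701 and 3177 on the controls. In the fit on 18 arrays 6 of the 32 passed, all lower. In a bulk sample, fewer cells of a type and less RNA per cell cannot be told apart.

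Of 60 cytosolic ribosomal proteins, 3 lay above the controls and 1 below, with a median of 0.01. Of 57 mitochondrial ribosomal proteins, 5 lay above and 9 below. Replication genes differed in part: MCM3, a subunit of the replicative helicase, read 88.7, 98.9 and 108 on the heat arrays, against 171, 222 and 253 on the controls (log2 -1.0, SE 0.16, adjusted p = 0.0867), and MCM2 and MCM5 were lower on all 3 heat arrays too (log2 -0.73 and -0.97). Of 41 cell cycle and replication genes, 7 lay above and 6 below. In cholesterol synthesis 1 of 15 lay above and 4 below, with a median of -0.23. DHCR7, which catalyses the last step and is marked for brain, read 134, 127 and 140 on the heat arrays, against 202, 299 and 256 on the controls. Among antioxidant genes, GPX1 and CAT were higher on all 3 heat arrays (log2 0.54 and 0.66) and HMOX2 lower (log2 -0.88), and 4 of 38 lay above and 8 below.

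Some genes outside the lists, chosen after their values were seen, were as clearly separated. HBP1, a transcriptional repressor, read 630, 562 and 454 on the heat arrays, against 218, 193 and 137 on the controls (log2 1.52, SE 0.20, adjusted p = 0.0735). C8orf22 read 4850, 6663 and 7612 on the heat arrays, against 1644, 1991 and 2129 on the controls (log2 1.71, SE 0.19, adjusted p = 0.0735). TBC1D1, which controls movement of glucose transporters to the membrane, read 1892, 1721 and 1763 on the heat arrays, against 906, 932 and 792 on the controls (log2 1.02, SE 0.13, adjusted p = 0.0735). In the other direction, FBXW7, a ubiquitin ligase receptor, read 401, 366 and 357 on the heat arrays, against 803, 885 and 1042 on the controls (log2 -1.24, SE 0.15, adjusted p = 0.0735). KBTBD13, a muscle kelch protein whose gene is mutated in a human nemaline myopathy, read 148, 127 and 137 on the heat arrays, against 384, 305 and 353 on the controls (log2 -1.24, SE 0.14, adjusted p = 0.0735). PNOC, the precursor of nociceptin, had the largest negative difference of a named gene among those with separated groups: it read 479, 316 and 162 on the heat arrays, against 835, 1512 and 2539 on the controls (log2 -2.28, SE 0.47, adjusted p = 0.117).

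The heat effect in muscle was set against that in the other tissues, by interaction contrasts over the 18 arrays. Their spread is taken from all 18 arrays, and the median within-group SD was larger in muscle (0.20) than in liver (0.17) or brain (0.14). The arrays are treated as independent, but the labels do not say whether tissues with the same replicate number came from the same birds. With the replicate number as a block fewer differences passed, as given in the last section. Against liver, 209 of 21691 probe sets (0.964%) passed an adjusted p of 0.05, 104 with the larger value in muscle and 105 with the larger value in liver, and 148 of the 209 were not marked. Against brain, 81 of 22854 (0.354%) passed, 35 larger in muscle and 46 larger in brain, and 64 were not marked. Among the unmarked probe sets with a gene symbol that passed, ASB2 had the largest positive difference in both. Its heat effect was 3.03 in muscle, against -0.13 in liver and 0.17 in brain (difference 3.16, SE 0.23, adjusted p = 3.99e-06 against liver, and 2.86, SE 0.23, adjusted p = 1.66e-05 against brain). UCP3 and PFKFB3, the latter on its brightest probe set, also differed from both tissues. PFKFB3 differed by 1.65 (adjusted p = 0.0135) from liver and 1.73 (adjusted p = 0.0212) from brain. Its dimmer probe sets differed by -0.19 and 0.23 from liver and passed in neither contrast. The heat effect of UCP3 was 1.48 in muscle, against -0.14 in liver and -0.04 in brain. UCP3 averaged 37.1 in liver controls and 40.8 in brain controls, within the range of the trp probe sets, so a fall there could not show. That of PFKFB3 was -0.05 in liver and -0.13 in brain.

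HSPB9 ran the other way. On its dimmer probe set the heat effect was 1.53 in muscle, against 4.56 in liver and 4.11 in brain (difference -3.03, SE 0.41, adjusted p = 0.00267 against liver, and -2.58, SE 0.41, adjusted p = 0.0142 against brain). The same probe set read 2127 to 3621 in muscle controls, above the 466 to 606 of liver controls and the 152 to 389 of brain controls. HSPA2 and DNAJA4 also had smaller effects in muscle than in brain. HSPA2 differed by 0.30 in muscle, against 1.49 in brain (difference -1.19, SE 0.21, adjusted p = 0.0212). On its brightest probe set, DNAJA4 differed by -0.04 in muscle, against 1.29 in brain (difference -1.33, SE 0.19, adjusted p = 0.00723). Another DNAJA4 probe set had an effect of -0.08 in both muscle and brain. Of these chaperones, HSPA2 read 7745 to 10717 in muscle controls and 4348 to 4523 in brain controls, and DNAJA4 read 2691 to 3800 in muscle controls and 1521 to 1896 in brain controls. ATF3 was lower in heated muscle (-1.74) with differences near 0 in liver (0.02) and brain (-0.01), and both contrasts passed (adjusted p = 0.011 against liver and 0.0219 against brain). The SE of either contrast (0.30) was no larger than that of the muscle difference on the 6 muscle arrays (0.31). On those 6 arrays the muscle difference did not pass (limma, adjusted p = 0.0898). ATF3 averaged 64.8 in liver controls and 62.6 in brain controls, close to the highest trp probe set there, so a fall could hardly show.

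**Figure D5:**
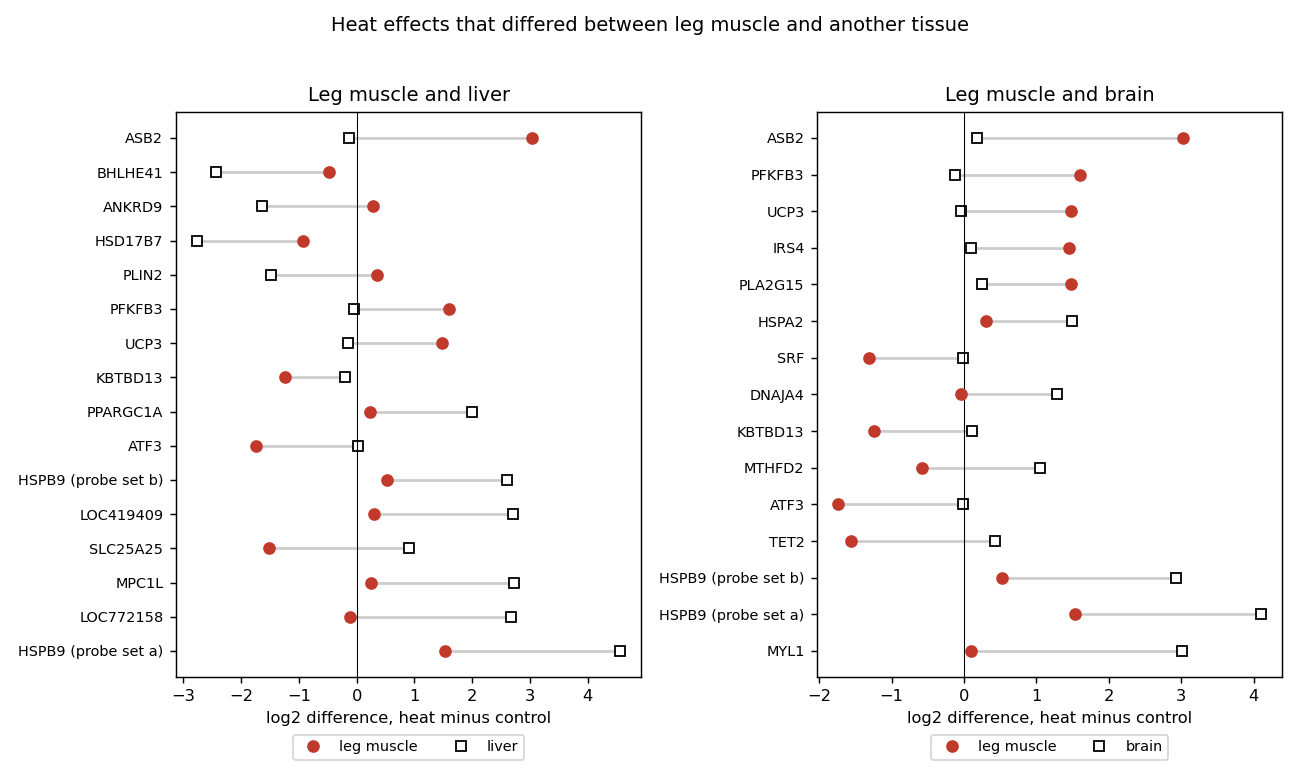
Heat effects (log2 difference, heat minus control) of named genes whose effect differed between leg muscle (filled circles) and liver (left panel) or brain (right panel, open squares), joined by a line. ASB2, UCP3 and PFKFB3 lie to the right in muscle and near 0 in the other tissues, where UCP3 is within background. Both HSPB9 probe sets lie further right in liver and brain.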

How the data were processed

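Each value of the deposited table is an intensity of a probe set, linear and never negative, as the authors made it. The software GCOS 1.4 is named in the submitters' processing notes without its role, and how probes were summarised, corrected for background and scaled is not stated there. Gene symbols came from the platform annotation: 27168 probe sets have 1 symbol, 177 several and 11094 none, and these were not named. No symbol needed an update.

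Muscle arrays kept their deposited scaling, since trimmed means (2% off each end) differed by at most 1.04 times. Values were analysed as log2(intensity + 16). Probe sets whose mean over the 6 muscle arrays fell below the median probe set (lowest mean kept 87.0) were not tested, so the lowest ones lie near background, and 3 arrays per group limit the precision. Heat and control were compared with limma 3.58.1 in R 4.3.3 (lmFit, eBayes with trend, two-sided, Benjamini-Hochberg). Interaction contrasts used all 18 arrays, with liver arrays quantile normalized among themselves. Steps were tested on simulated data.

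The genes were grouped in 59 lists, 13 of them markers, with 1619 symbols, of which 1324 were on the array and 1190 tested. The members, lists and rules were chosen with earlier results of these data known. A gene stands for its tested probe set with the highest mean in muscle. In the marker medians and their plot, a marker stands for its probe set with the highest mean in liver controls (hepatocyte), brain controls (neuron) or muscle controls (other markers). Named are called genes, the 6 largest positive differences among probe sets marked as possible carried-over RNA, up to 4 members of each list with the smallest p, 20 genes whatever their result (HSP25 had no symbol match), and the 5 largest tissue differences in each direction. Others are marked as chosen later. "Above" and "below" mean that the 3 heat values lie outside the range of the 3 control values. No replicate arrays held equal values (correlations within a group 0.976 to 0.981). Promoter motifs were not searched.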

Additional observations from a re-analysis of the deposited data

Results flagged for a closer look

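The heat effects below differed between leg muscle and another tissue by the interaction contrast (limma over 18 arrays, adjusted p under 0.05). They are log2 differences of the muscle effect minus the other tissue's effect. Of 31 such differences listed, 16 are against liver and 15 against brain. Their spread is that of all 18 arrays, and the arrays are treated as independent, with the limits given beside the contrasts above. No explanation of the differences was tested.

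Against liver, ASB2 differed by 3.16, UCP3 by 1.62 and PFKFB3, on its brightest probe set, by 1.65, and these were higher in heated muscle. PFKFB3 was chosen after its values were seen. UCP3 averaged 37.1 in liver controls, within the range of the trp probe sets. BHLHE41, a clock repressor, differed by 1.96, since its effect was -0.47 in muscle and -2.43 in liver. ANKRD9 differed by 1.92, PLIN2, a coat protein of lipid droplets, by 1.83 and HSD17B7, a sterol enzyme, by 1.84, each with a negative effect in liver. HSPB9 differed by -3.03 on its dimmer and -2.07 on its brighter probe set. LOC772158 differed by -2.79, MPC1L, a mitochondrial pyruvate carrier, by -2.47 and LOC419409 by -2.41, with effects of 2.67 to 2.72 in liver. This MPC1L value is that of the most different probe set. Another passed too, at -2.30, while the rest, at -0.74, -0.62 and -0.15, did not pass. SLC25A25, a mitochondrial carrier for ATP and phosphate, differed by -2.43, with an effect of -1.52 in muscle and 0.91 in liver. Its muscle groups overlapped, with 65.9, 73.4 and 206 on the heat arrays, against 501, 322 and 203 on the controls. In muscle, neither of its 2 other tested probe sets had the same sign. ATF3 differed by -1.76, PPARGC1A by -1.75 (0.24 in muscle, 1.99 in liver) and KBTBD13, chosen after its values were seen, by -1.04. Another PPARGC1A probe set differed by -0.70 and did not pass. ATF3 averaged 64.8 in liver controls, close to the highest trp probe set there.

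Against brain, ASB2 differed by 2.86, PFKFB3, on its brightest probe set, by 1.73 and UCP3 by 1.52. IRS4 differed by 1.36 and PLA2G15, a lysosomal phospholipase, by 1.23. UCP3 averaged 40.8 in brain controls, within the range of the trp probe sets. HSPB9 differed by -2.58 on its dimmer and -2.40 on its brighter probe set. DNAJA4, on its brightest probe set, differed by -1.33 and HSPA2 by -1.19. TET2, a DNA demethylase, differed by -2.0, ATF3 by -1.72 and MTHFD2, on a dimmer probe set than the one described above, by -1.63. ATF3 averaged 62.6 in brain controls, close to the highest trp probe set there. SRF, on its brighter probe set, differed by -1.30 and KBTBD13 by -1.35, both chosen after their values were seen. MYL1, a myosin light chain of muscle, differed by -2.91, with an effect of 0.10 in muscle and 3.01 in brain. MYL1 averaged 20.4 in brain controls, within the range of the trp probe sets, against 18132 in muscle controls. Its brain effect thus starts from background, depends on the constant added to intensities and is no measured fold. The source of the MYL1 signal on the brain heat arrays was not tested.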

How the results depend on the processing

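With the main settings 2 probe sets were called. The count was 25 with a filter at the 75th percentile, 4 after quantile normalization, 1702 with the fit on 18 arrays, 111 with array weights, 11 with 1 probe set per gene, 6 over unmarked probe sets alone, 1 with a filter on mean log2 intensity and 1 without heat 3 and control 3. It was 163 at an adjusted p of 0.1 and 256 at an unadjusted p of 0.05 with 2-fold. With the replicate number as a block (replicate block) it was 0 (limma, 2471 at an unadjusted p under 0.05). Deviations of same-numbered arrays correlated at r = -0.43, 0.03 and -0.13 for replicates 1, 2 and 3. With 3 arrays per group and transcripts of other tissues on some, these values cannot show whether the numbers mark a pairing or a batch. Leaving out 1 array gave 0 to 9, with 0 without control 2, control 3 or heat 2 (2427, 2226 and 1851 at an unadjusted p under 0.05). Among unmarked probe sets the counts were 24, 4, 1524, 99, 10, 1 and 1 in the settings with filter, quantile, 18 arrays, weights, 1 per gene, log2 filter and heat 3 and control 3 left out, 0 with the block, and 0 to 3 leaving out 1 array. The 172 higher at 2-fold became 101 with 1 probe set per gene, 66 over unmarked probe sets and 117 to 301 leaving out 1 array. The 84 lower became 49 with 64 added to intensities, 127 with array weights, 48 with 1 probe set per gene and 74 to 155 leaving out 1 array. Differences from liver numbered 319 with 64 added, 86 with the block and 125 to 253 leaving out 1 array, and those from brain 177, 8 and 52 to 122. Except for the smaller sets of probe sets or arrays, the cause was not tested. ASB2 stayed past the threshold in 16 of 21 alternatives (adjusted p 2.68e-08 to 0.294, limma). Values near 0 changed sign: HSPB1 was -0.0024 with medians set equal, -0.016 with a hepatocyte marker covariate and -0.0064 to 0.098 leaving out 1 array, CRYAB -0.19 to 0.16, DNAJA4 -0.20 to 0.047 and PER2 -0.077 to 0.29. The other named genes kept their direction in the alternatives run. With 3 arrays per group, and with transcripts of liver, neuron and skin markers on some arrays, small differences cannot be told from this spread.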
